A study of Homo sapiens with 12 samples.

Results

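Homologous recombination and Fanconi genes were followed as a set of 34 protein-coding genes. The members are the gene intervals of the deposited table whose name is on a list of 34 symbols and whose class is protein-coding, with the shortest interval kept where a name has several. All 34 were found among 44346 gene intervals used, 19173 of them protein-coding, and all 34 passed the filter on low counts, as did 24935 intervals in all. The list was set by gene function and its rule used no measured value, but earlier results of these data were known.

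A172 is an established human glioblastoma cell line, labelled as adherent glioma cells with wild-type genotype. The groups were transfected with siRNA-1 or siRNA-2, both against uc.110, or with a scrambled control, with 4 libraries a group and 12 in all. All groups went through the same lipid transfection for 6 h on day 1 after seeding, followed by fresh medium, and RNA was taken on day 2 after transfection. uc.110 is an ultraconserved element, a genome stretch that is identical in several mammals, and the study asks which genes are deregulated when it is knocked down. Nothing in the labels ties the 4 libraries of each group to separate cultures. The p-values therefore measure the spread between these samples alone, which may be technical.

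Homologous recombination repairs a broken chromosome by copying an intact sister sequence. The kinases ATM and ATR signal the damage, nucleases trim the broken ends, and BRCA1, PALB2 and BRCA2 load a recombinase that its paralogs and the RAD54 translocases assist. Fanconi proteins act where the strands of DNA are cross-linked: a core complex attaches ubiquitin to the FANCD2 and FANCI pair, which opens the way to repair by recombination. In glioblastoma these pathways are known for their part in the response to radiation and alkylating drugs.

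After either siRNA more members fell than rose, by modest amounts. With siRNA-1, 19 of 34 members fell (55.9%) and 6 rose (17.6%), against 24.8% lower and 28.5% higher among all genes tested. With siRNA-2, 16 fell (47.1%) and 8 rose (23.5%), against 26.1% lower and 29.9% higher among all genes tested. ATM, ATR, RBBP8, FANCM, XRCC2, RAD51B and WRN lay lowest and XRCC3, RAD50 and PALB2 highest. The calls come from edgeR's quasi-likelihood test with Benjamini-Hochberg adjustment over all 24935 genes and a threshold of 0.05. In bulk RNA, fewer cells of a kind and less RNA per cell cannot be told apart.

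Promoter stretches are shown for 3 lowered and 3 raised members, chosen after their values were seen, whose RefSeq start site lies within 1000 bases of the start of the counted interval. Each runs over the 120 bases before the start site, 5′ to 3′ on the gene's strand, from RefSeq (GRCh38.p14). Capitals mark CCAAT, or ATTGG where it stands on the other strand, the letters that the factor NF-Y is known to bind.
The lowered members:
ATM, chr11:108222947-108223066, plus strand: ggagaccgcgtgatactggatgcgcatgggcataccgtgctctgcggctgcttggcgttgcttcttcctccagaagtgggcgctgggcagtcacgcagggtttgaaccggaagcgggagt
ATR, chr3:142578734-142578853, minus strand: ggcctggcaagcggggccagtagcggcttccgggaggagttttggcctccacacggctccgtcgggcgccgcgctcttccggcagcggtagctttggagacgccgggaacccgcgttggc
XRCC2, chr7:152676142-152676261, minus strand: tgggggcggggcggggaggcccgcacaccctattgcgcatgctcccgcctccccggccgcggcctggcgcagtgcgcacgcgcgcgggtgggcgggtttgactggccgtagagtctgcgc
The raised members:
XRCC3, chr14:103715452-103715571, minus strand: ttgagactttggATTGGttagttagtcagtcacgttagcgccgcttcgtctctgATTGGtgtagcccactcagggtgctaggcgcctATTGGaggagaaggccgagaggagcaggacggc
PALB2, chr16:23641311-23641430, minus strand: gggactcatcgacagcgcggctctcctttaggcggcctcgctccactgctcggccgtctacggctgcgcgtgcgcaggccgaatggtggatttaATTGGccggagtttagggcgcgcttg
FANCF, chr11:22625824-22625943, minus strand: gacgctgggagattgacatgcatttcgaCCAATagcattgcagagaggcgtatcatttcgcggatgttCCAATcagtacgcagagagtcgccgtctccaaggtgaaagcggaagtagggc
The stretches of ATM, ATR and XRCC2 hold no CCAAT. Those of PALB2, FANCF and XRCC3 hold 1, 2 and 3. The members not printed do not keep that division: FANCM, which fell more on average than ATR or XRCC2, holds 1 CCAAT in its 120 bases, RAD50, which rose, holds none, and a longer window of ATM holds 1.

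Motifs were counted on both strands in the RefSeq window from 250 bases before to 50 bases after the start site, which was matched for 30 of 34 members. CCAAT stood in 13 of these 30 windows (43.3%), against 36.3% of 14508 protein-coding promoters. Of the 16 members that were lower with both siRNAs, 13 had a window, and CCAAT was in 5 of these 13 (38.5%). It was in 3 of the 4 members that were higher with both (75%). XRCC3 had 5 matches in its window, FANCF 2 and PALB2 1. The E2F letters TTTCGCGC, TTTGGCGC and TTTCCCGC stood in 4 of 30 members (13.3%), FANCC, FANCD2, XRCC2 and EXO1, against 3.73% of all promoters and 66.7% of 21 G1/S and DNA replication genes. The CHR letters TTTGAA and TTCGAA, known from promoters of mitotic genes, stood in 3 of 30 (10%), ATM, BRIP1 and FANCC, against 13.4% of all promoters and 68.4% of 19 G2/M genes. The NRF1 letters GCATGCGC stood in 1 member, XRCC2 (3.33% against 4.29%), and the interferon-response letters GAAANNGAA in 4 (13.3% against 6.84%), BRCA1, RAD51AP1, FANCE and FANCM. Words of different motifs can share end bases, and the matches describe letters only. For BRCA1, RBBP8, MRE11, RAD51B and CHEK1 the RefSeq start site lies over 1000 bases from the interval's start, so their windows may not be the promoter in use.

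Counts per library over the intervals used were between 42758539 and 52921895. The 34 members took 0.0955% to 0.1% of these counts in scrambled cells, 0.0845% to 0.0939% after siRNA-1 and 0.0895% to 0.0939% after siRNA-2. Ribosomal RNA held 1.7% to 5.09% of reads in 10 libraries, 15% for siRNA-1 replicate 3 and 8.58% for siRNA-2 replicate 2. In scrambled replicate 1, 1556 intervals had reads in that library alone, where the other 11 libraries had 86 to 167 such intervals. The uc.110 region held 11 reads in the scrambled group, 5 after siRNA-1 and 7 after siRNA-2, too few to check the knockdown. Of 13 glioma and astroglial markers listed, VIM, NES, CD44 and EGFR were abundant. In scrambled cells SOX2 was at 15.6, GFAP at 6.29, OLIG2 at 4.65, CHI3L1 at 3.64 and ALDH1L1 at 0.209 CPM (counts scaled by library size). The astrocyte markers AQP4 and S100B had 0 and at most 1 read in a library, SLC1A3 at most 6 and FABP7 at most 13. Among neuron and oligodendrocyte markers, SYT1 was at 29.8 CPM in scrambled cells, above GFAP. GAD1 was at 5.08, MBP at 0.756 and RBFOX3 at 0.733 CPM there. Of the leukocyte markers CD3E had at most 4 reads in a library, while CD68, a lysosomal protein, was at 38.6, 73.9 and 159.0 CPM in the scrambled, siRNA-1 and siRNA-2 groups. The 8 leukocyte and endothelial markers tested summed to 48.7 to 55.6, 75.1 to 92.7 and 161 to 188 CPM in these groups, with CD68 the largest part, and their part in the members' values was not tested.

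Each count covers the whole span of a gene, introns included, and does not separate strands: MIR3074 and MIR24-1, on opposite strands inside FANCC, held 1400 and 1397 reads. Among the intervals used, another gene's interval overlaps 21 members, and 13 members stand alone. Intervals left out were not searched for overlap. Of the 13, 5 fell (38.5%) and 3 rose (23.1%) with siRNA-1, and 4 fell (30.8%) and 3 rose with siRNA-2. The 38.5% lower with siRNA-1 stands beside 24.8% of all genes tested and 32.2% of 9122 protein-coding genes within the members' range of level. The 30.8% lower with siRNA-2 is near the 26.1% of all genes tested and under the 35.2% of those 9122 genes. All genes tested had 28.5% and 29.9% higher. Of the 21, 14 fell (66.7%) and 3 rose (14.3%) with siRNA-1, and 12 fell (57.1%) and 5 rose (23.8%) with siRNA-2.

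**Figure D1:**
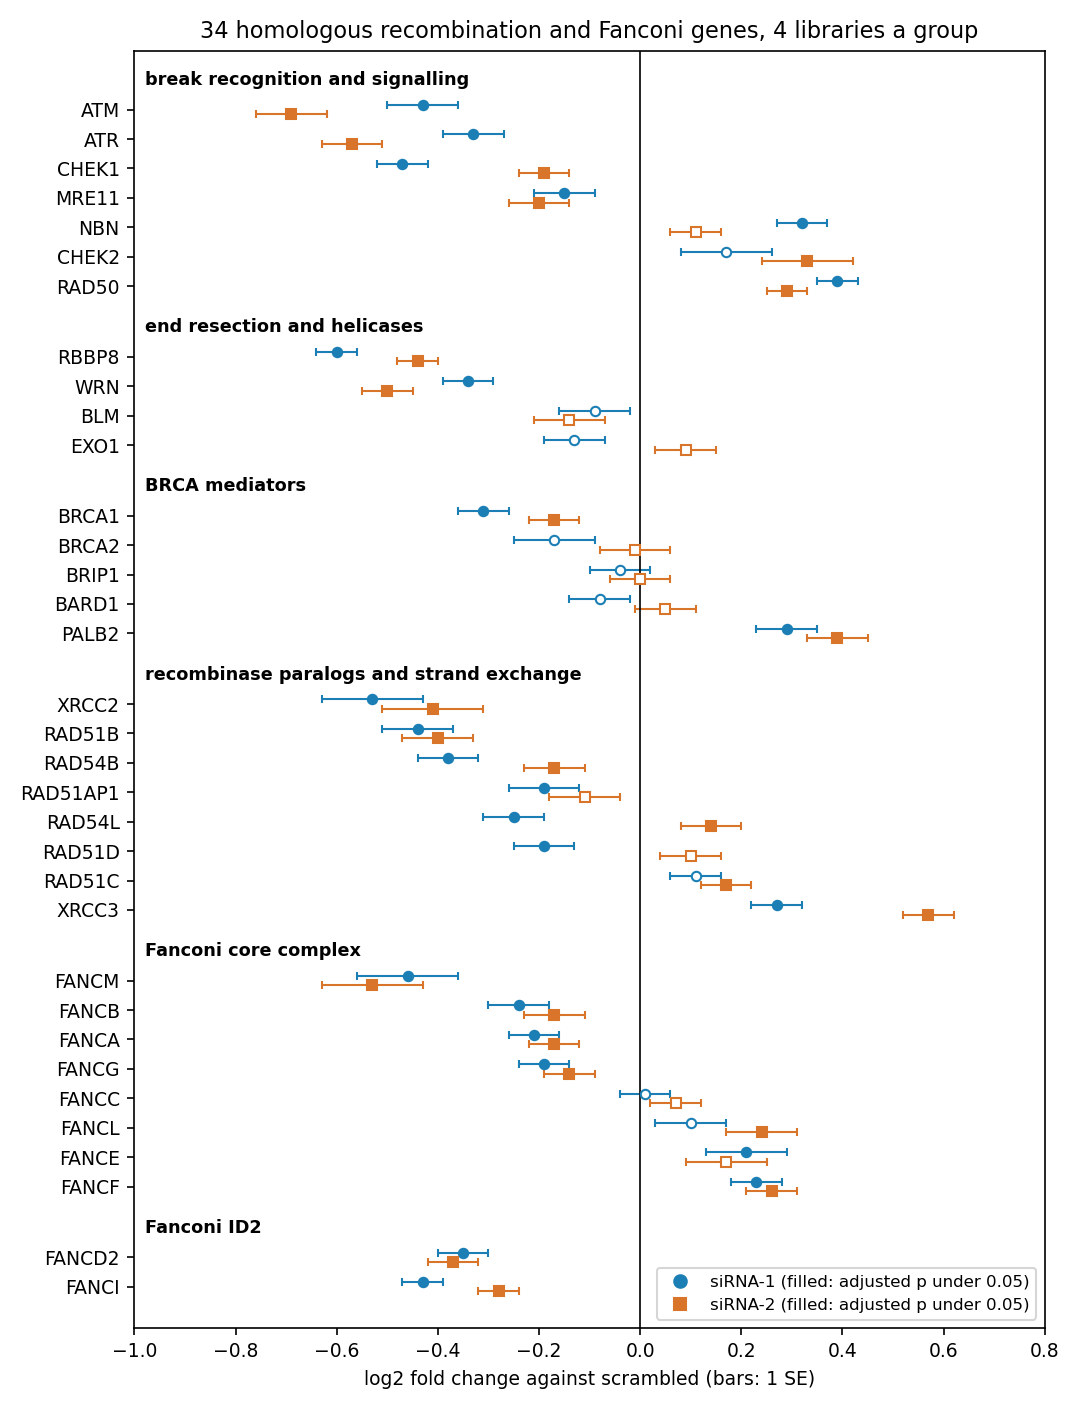
Log2 fold change against scrambled (horizontal axis) of each of the 34 members with siRNA-1 (circles) and siRNA-2 (squares), in blocks by role, with bars of 1 SE and filled symbols for an adjusted p under 0.05. ATM reaches -0.69 with siRNA-2, XRCC3 reaches 0.57, and RAD54L lies on opposite sides of 0.

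Among the 7 genes of break recognition and signalling, 4 fell and 2 rose with each siRNA. ATM (chr11:108222484-108370244), the kinase that responds to broken DNA ends, was at 16.9, 17.1, 15 and 18.0 CPM in the scrambled libraries. It was at 12.6, 13.9, 11.8 and 11.4 CPM with siRNA-1 and at 9.36, 11, 11 and 9.98 CPM with siRNA-2. All 3 groups were apart, with scrambled highest and siRNA-2 lowest. ATM fell by 0.43 on the log2 scale with siRNA-1 (SE 0.07, edgeR adjusted p = 1.84e-05) and by 0.69 with siRNA-2 (SE 0.07, adjusted p = 1.19e-08), the deepest fall in the set. C11orf65 overlaps 42.6% of the ATM span and holds 64.2% as many reads, and its part in the ATM values was not tested.

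ATR (chr3:142449235-142578826), the kinase that responds to exposed single-stranded DNA, was at 40.2, 39.6, 42.0 and 44.0 CPM in scrambled cells. It was at 35.3, 36.7, 30.2 and 30.3 CPM with siRNA-1 and at 25.2, 29.5, 28.8 and 28.1 CPM with siRNA-2. The groups followed the order seen for ATM and did not overlap, and no other interval used overlaps ATR. Its log2 fold change was -0.33 with siRNA-1 (SE 0.06, edgeR adjusted p = 0.000144) and -0.57 with siRNA-2 (SE 0.06, adjusted p = 7.34e-08).

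CHEK1 (chr11:125624910-125676307), the checkpoint kinase that ATR activates, was at 30.8, 29.8, 31.7 and 31.5 CPM in scrambled cells. It was at 22.2, 21.6, 22.7 and 22.7 CPM with siRNA-1 and at 27.4, 27.0, 28.2 and 25.6 CPM with siRNA-2. Here the order of the siRNAs was the reverse of that for ATM and ATR: the siRNA-1 libraries were lowest, and no groups overlapped. CHEK1 fell by 0.47 with siRNA-1 (SE 0.05, edgeR adjusted p = 3.56e-09) and by 0.19 with siRNA-2 (SE 0.05, adjusted p = 0.000788).

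CHEK2 (chr22:28687595-28741866), the checkpoint kinase that ATM activates, was at 8.37, 6.31, 7.11 and 6.19 CPM in scrambled cells. It was at 9.03, 7.13, 7.83 and 7.44 CPM with siRNA-1 and at 9.1, 8.68, 8.64 and 8.7 CPM with siRNA-2. The siRNA-1 libraries overlapped the scrambled ones and the siRNA-2 libraries lay above them. CHEK2 rose by 0.33 with siRNA-2 (SE 0.09, edgeR adjusted p = 0.00378), and its log2 fold change with siRNA-1 was 0.17 (SE 0.09, adjusted p = 0.138).

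The MRE11, RAD50 and NBN proteins form 1 complex that binds and trims broken ends, and their genes did not change alike. RAD50 (chr5:132556925-132646349), its structural ATPase, was at 101.0, 100, 97.9 and 102.0 CPM in scrambled cells. It was at 127.0, 140.0, 130.0 and 128.0 CPM with siRNA-1 and at 123.0, 125, 122.0 and 121.0 CPM with siRNA-2. Every siRNA library was above every scrambled one. RAD50 rose by 0.39 (SE 0.04, edgeR adjusted p = 1.61e-09) with siRNA-1 and by 0.29 (SE 0.04, adjusted p = 1.53e-07) with siRNA-2. TH2LCRR overlaps 18.6% of its span and holds 34.8% as many reads.

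NBN (chr8:89933331-89984733), the adaptor of that complex, was at 25.1, 23.1, 23.5 and 22.6 CPM in scrambled cells. It was at 27.2, 30.4, 31.1 and 29.1 CPM with siRNA-1 and at 24.4, 25.3, 27.1 and 24.9 CPM with siRNA-2. The siRNA-1 libraries lay above all others, and the siRNA-2 libraries overlapped the scrambled ones. NBN rose by 0.32 with siRNA-1 (SE 0.05, edgeR adjusted p = 1.15e-05), and its value with siRNA-2 was 0.11 (SE 0.05, adjusted p = 0.079). OSGIN2 overlaps 4.4% of its span and holds 104.9% as many reads. MRE11, the nuclease, fell by 0.15 with siRNA-1 (SE 0.06, adjusted p = 0.0327) and by 0.20 with siRNA-2 (SE 0.06, adjusted p = 0.00495). The siRNA-1 call on MRE11 was lost when the reads of intervals nested in it, 26.8% of its reads, were subtracted (adjusted p = 0.104), and in 5 of the other alternatives.

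Among the 4 genes of end resection and helicases, RBBP8 and WRN fell with both siRNAs. RBBP8 (chr18:22914121-23026488) encodes CtIP, which starts the trimming of broken ends, and was at 50.3, 48.7, 53.9 and 53.5 CPM in scrambled cells. It was at 33.6, 35.3, 33.5 and 33.7 CPM with siRNA-1 and at 36.2, 38.3, 39.2 and 38.3 CPM with siRNA-2. The groups did not overlap, and siRNA-1 was lowest. RBBP8 fell by 0.60 with siRNA-1 (SE 0.04, edgeR adjusted p = 2.51e-11), the deepest fall there, and by 0.44 with siRNA-2 (SE 0.04, adjusted p = 4.8e-09).

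WRN (chr8:31033263-31176138), a RecQ helicase with an exonuclease, was at 24.1, 23.8, 22.6 and 24.7 CPM in scrambled cells. It was at 18.2, 19.8, 18.0 and 19.3 CPM with siRNA-1 and at 16.1, 16.5, 16.6 and 18.0 CPM with siRNA-2. All siRNA libraries were below all scrambled ones, and the siRNA groups met at 18.0 CPM. WRN fell by 0.34 with siRNA-1 (SE 0.05, edgeR adjusted p = 6.32e-06) and by 0.50 with siRNA-2 (SE 0.05, adjusted p = 1.06e-08). BLM, another RecQ helicase, and EXO1, an exonuclease, did not pass with either siRNA: BLM had log2 fold changes of -0.09 and -0.14, and EXO1 of -0.13 and 0.09. EXO1 was called lower with siRNA-1 in 10 of 22 alternatives, as far as -0.20 without siRNA-1 replicate 2 (edgeR adjusted p = 0.0073).

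**Figure D2:**
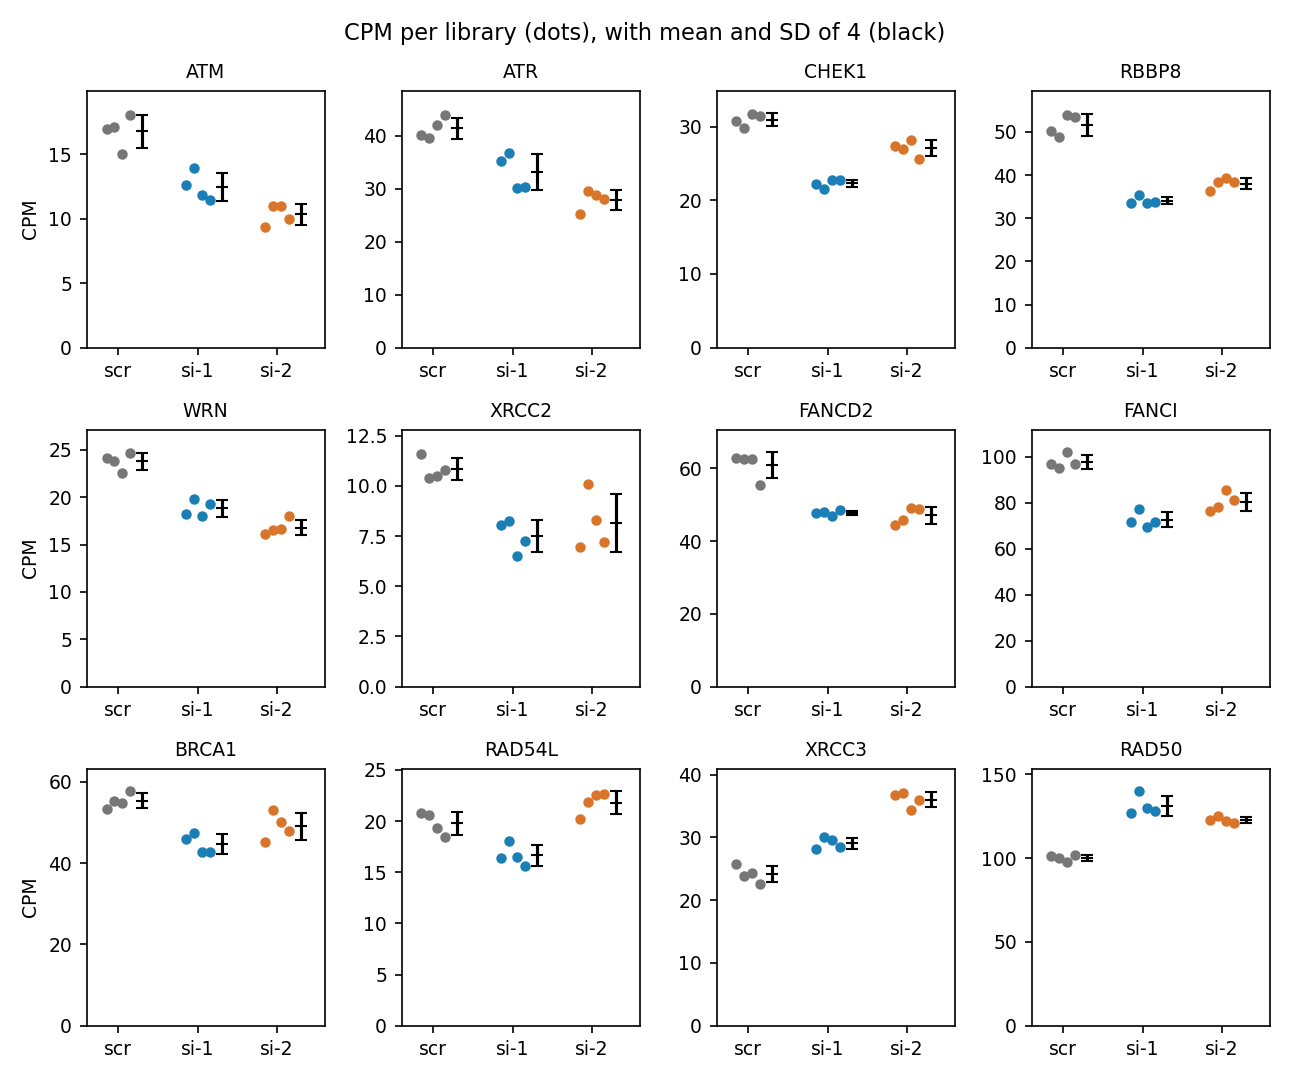
CPM (vertical axis, from 0) in each library (dots) for 12 members in the scrambled (scr), siRNA-1 (si-1) and siRNA-2 (si-2) groups, with the mean and SD of 4 libraries in black. RBBP8 lies at 48.7 to 53.9 CPM in scrambled cells and at 33.5 to 39.2 CPM with the siRNAs, and RAD54L lies lowest with siRNA-1.

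Of the 5 BRCA mediators, BRCA1 fell and PALB2 rose with both siRNAs, and 3 did not pass. BRCA1, which directs broken ends to recombination, was at 55.3 ± 1.85 CPM (SD, n = 4) in scrambled cells, 44.7 ± 2.38 with siRNA-1 and 49.0 ± 3.3 with siRNA-2. Its log2 fold changes were -0.31 (SE 0.05, edgeR adjusted p = 8.13e-06) and -0.17 (SE 0.05, adjusted p = 0.00402), and no other interval used overlaps it.

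PALB2 (chr16:23600306-23641357), which joins BRCA1 to BRCA2, was at 14.6, 14.8, 14.9 and 14.8 CPM in scrambled cells. It was at 16.4, 19.5, 19 and 17.6 CPM with siRNA-1 and at 20.8, 19, 19.5 and 18.3 CPM with siRNA-2. Every siRNA library was above every scrambled one, and the siRNA groups overlapped. PALB2 rose by 0.29 (SE 0.06, edgeR adjusted p = 0.00018) with siRNA-1 and by 0.39 (SE 0.06, adjusted p = 3.19e-06) with siRNA-2, and it too has no overlapping interval among those used. BRCA2, which loads the recombinase, had log2 fold changes of -0.17 (adjusted p = 0.0546, and called lower in 10 of 22 alternatives) and -0.01. BARD1, the partner of BRCA1, had -0.08 and 0.05, and BRIP1, a helicase that binds BRCA1, had -0.04 and 0.

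Of the 8 recombinase paralogs and strand exchange genes, 6 fell and 1 rose with siRNA-1, while 3 fell and 3 rose with siRNA-2. XRCC2 (chr7:152635835-152676165) and RAD51B (chr14:67819779-68700448) belong to the same paralog complex. XRCC2 was at 11.6, 10.4, 10.5 and 10.8 CPM in scrambled cells, at 8.07, 8.24, 6.49 and 7.27 CPM with siRNA-1 and at 6.94, 10.1, 8.29 and 7.22 CPM with siRNA-2. All siRNA libraries were below the scrambled ones, with siRNA-2 replicate 2 close to them. XRCC2 fell by 0.53 (SE 0.10, edgeR adjusted p = 0.000115) and by 0.41 (SE 0.10, adjusted p = 0.00119).

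RAD51B was at 17.1, 16.1, 13.6 and 17.2 CPM in scrambled cells, at 11, 11.9, 12.9 and 11.5 CPM with siRNA-1 and at 12.5, 12.2, 11.5 and 12.4 CPM with siRNA-2. The siRNA groups overlapped each other and lay below the scrambled libraries. RAD51B fell by 0.44 (SE 0.07, edgeR adjusted p = 1.1e-05) and by 0.40 (SE 0.07, adjusted p = 3.31e-05). Its span is the longest of the set at 880670 bases, and intervals nested in it hold 21.9% of its reads.

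RAD51D (chr17:35092221-35119869), another subunit of that complex, was at 18.9, 17.8, 17.1 and 18.2 CPM in scrambled cells. It was at 15.6, 15.7, 16.1 and 15.8 CPM with siRNA-1 and at 18.0, 19.3, 21.2 and 18.8 CPM with siRNA-2. The siRNA-1 libraries lay below all others, and the siRNA-2 libraries overlapped the scrambled ones. RAD51D fell by 0.19 with siRNA-1 (SE 0.06, edgeR adjusted p = 0.00594) and had a value of 0.10 with siRNA-2 (SE 0.06, adjusted p = 0.118). Its interval lies wholly inside the readthrough gene RAD51L3-RFFL, and reads of the readthrough transcript count for both.

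XRCC3 (chr14:103697611-103715486), which pairs with RAD51C in a second paralog complex, was at 25.8, 23.9, 24.4 and 22.6 CPM in scrambled cells. It was at 28.2, 30.0, 29.6 and 28.5 CPM with siRNA-1 and at 36.7, 37.0, 34.3 and 36.0 CPM with siRNA-2. The groups rose in that order without overlap. XRCC3 rose by 0.27 (SE 0.05, edgeR adjusted p = 5.22e-05) and by 0.57 (SE 0.05, adjusted p = 1.88e-10), or by 0.34 and 0.65 with nested reads subtracted. KLC1 overlaps 25% of its span and holds 409.3% as many reads, and its part in the XRCC3 values was not tested. RAD51C rose by 0.17 with siRNA-2 (SE 0.05, adjusted p = 0.00549) and had 0.11 with siRNA-1 (adjusted p = 0.0526).

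RAD54L (chr1:46247688-46278477), a translocase that moves along DNA during strand exchange, passed in opposite directions. It was at 20.8, 20.6, 19.3 and 18.4 CPM in scrambled cells, at 16.4, 18.1, 16.5 and 15.6 CPM with siRNA-1 and at 20.2, 21.9, 22.5 and 22.6 CPM with siRNA-2. The siRNA-1 libraries lay below all others, while siRNA-2 replicate 1 was within the scrambled range. RAD54L fell by 0.25 with siRNA-1 (SE 0.06, edgeR adjusted p = 0.000769) and rose by 0.14 with siRNA-2 (SE 0.06, adjusted p = 0.0402). The siRNA-2 call was lost in 14 of 22 alternatives (adjusted p up to 0.144), and the siRNA-1 call in none. LRRC41 overlaps 3.3% of the span and holds 527.2% as many reads. RAD54B, its relative, fell by 0.38 (adjusted p = 9.08e-06) and by 0.17 (adjusted p = 0.0191), the latter lost with the reads of the nested gene FSBP subtracted (adjusted p = 0.0766). RAD51AP1, which stimulates strand exchange, fell by 0.19 with siRNA-1 (adjusted p = 0.0199) and had -0.11 with siRNA-2.

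**Figure D3:**
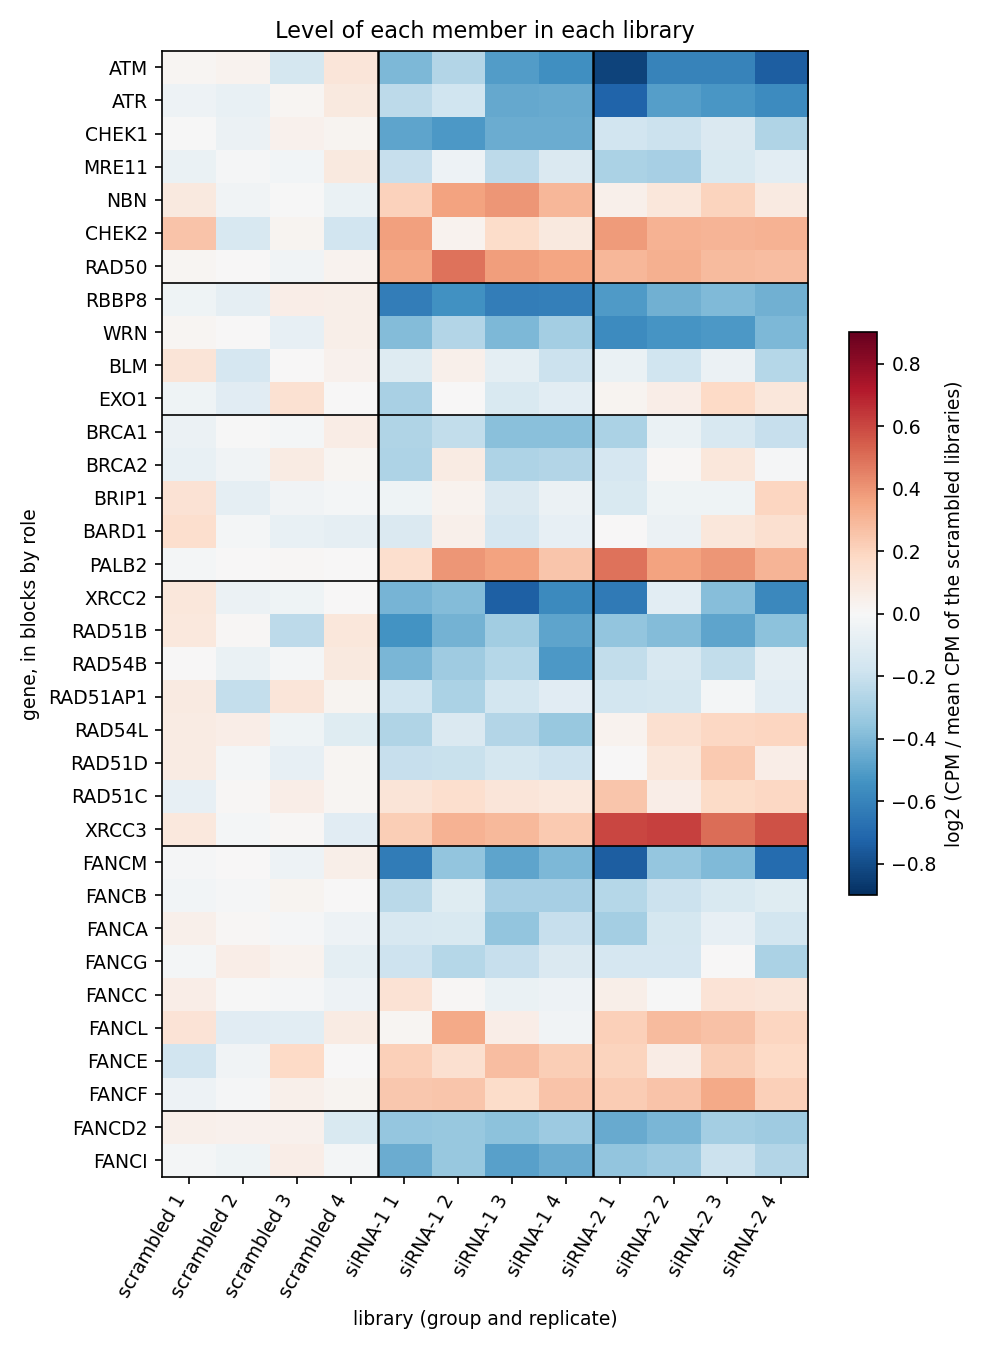
Level of each member (rows, in blocks by role) in each of the 12 libraries (columns), as log2 of CPM over the mean CPM of the scrambled libraries, with blue lower and red higher. Vertical lines part the 3 groups. ATM, ATR, RBBP8 and WRN are blue in all 8 siRNA libraries, and RAD50, PALB2, XRCC3 and FANCF red in all 8.

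Of the 8 members in the Fanconi core complex, 4 fell with each siRNA (50%), against 24.8% and 26.1% of all genes tested. With each siRNA 2 rose (25%), under the 28.5% and 29.9% of all genes tested. FANCF rose with both, FANCE with siRNA-1 alone and FANCL with siRNA-2 alone, and FANCC passed with neither. FANCM (chr14:45135930-45200890), the translocase that anchors the complex to DNA, was at 7.5, 7.6, 7.32 and 7.87 CPM in scrambled cells. It was at 4.89, 5.93, 5.46 and 5.73 CPM with siRNA-1 and at 4.52, 5.94, 5.74 and 4.68 CPM with siRNA-2. The siRNA groups overlapped each other and lay below the scrambled libraries. FANCM fell by 0.46 (SE 0.10, edgeR adjusted p = 0.000247) and by 0.53 (SE 0.10, adjusted p = 3.54e-05).

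FANCB, FANCA and FANCG, scaffold subunits, fell by less, with log2 fold changes of -0.24, -0.21 and -0.19 for siRNA-1 and of -0.17, -0.17 and -0.14 for siRNA-2. FANCF (chr11:22622533-22625841), an adaptor subunit, was at 12.8, 13.1, 13.6 and 13.4 CPM in scrambled cells, at 15.6, 15.7, 14.8 and 15.8 CPM with siRNA-1 and at 15.5, 15.8, 16.7 and 15.3 CPM with siRNA-2. Both siRNA groups lay above the scrambled libraries and overlapped each other. FANCF rose by 0.23 (SE 0.05, edgeR adjusted p = 0.00115) and by 0.26 (SE 0.05, adjusted p = 0.000225).

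FANCE (chr6:35452338-35467400), which binds FANCD2, was at 6.15, 6.78, 7.87 and 6.97 CPM in scrambled cells, at 8.05, 7.67, 8.41 and 8.09 CPM with siRNA-1 and at 7.96, 7.27, 8.09 and 7.86 CPM with siRNA-2. Scrambled replicate 3 reached into both siRNA groups. FANCE rose by 0.21 with siRNA-1 (SE 0.08, edgeR adjusted p = 0.0304), a call lost in 13 of 22 alternatives, and had 0.17 with siRNA-2 (SE 0.08, adjusted p = 0.0866).

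FANCL (chr2:58156932-58241681), the ubiquitin ligase of the complex, was at 15.9, 13.6, 13.7 and 15.4 CPM in scrambled cells, at 14.8, 18.5, 15.2 and 14.3 CPM with siRNA-1 and at 16.9, 17.8, 17.5 and 16.7 CPM with siRNA-2. The siRNA-2 libraries lay above the scrambled ones, and the siRNA-1 libraries overlapped them. FANCL rose by 0.24 with siRNA-2 (SE 0.07, edgeR adjusted p = 0.00662) and had 0.10 with siRNA-1 (SE 0.07, adjusted p = 0.243). FANCC, another subunit of the core complex, had 0.01 with siRNA-1 and 0.07 with siRNA-2.

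FANCD2 and FANCI, the pair that the core complex modifies, both fell with both siRNAs. FANCD2 (chr3:10026388-10102072) was at 62.8, 62.6, 62.4 and 55.4 CPM in scrambled cells, at 47.7, 48.0, 47.0 and 48.4 CPM with siRNA-1 and at 44.4, 45.8, 49.1 and 48.8 CPM with siRNA-2. Scrambled replicate 4 was the lowest control and still above all siRNA libraries. FANCD2 fell by 0.35 (SE 0.05, edgeR adjusted p = 4.49e-07) and by 0.37 (SE 0.05, adjusted p = 1.4e-07). FANCI was at 97.8 ± 3.11 CPM (SD, n = 4) in scrambled cells, 72.7 ± 3.32 with siRNA-1 and 80.3 ± 3.94 with siRNA-2, and fell by 0.43 (adjusted p = 2.81e-09) and by 0.28 (adjusted p = 1.85e-06).

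Over the whole set, 16 members were lower with both siRNAs, against 18.5% of all genes, and 4 were higher with both, against 22.1%. Both comparisons use the same scrambled libraries, so this agreement is given as a count only. In 17 members every siRNA-1 library was below every scrambled one, and in 6 every one was above, where all genes had 22.2% and 25.2%. With siRNA-2 these counts were 15 and 7, where all genes had 24% and 27.7%. The median log2 fold change of the 34 was -0.19 with siRNA-1 and -0.13 with siRNA-2, and that of all genes tested was 0.01 in each. Among 9122 protein-coding genes within the members' range of level, siRNA-1 had 32.2% lower and 38.5% higher, and siRNA-2 had 35.2% and 37.2%. Summed over the 34, CPM was 953 to 980 in scrambled cells, 867 to 929 after siRNA-1 and 890 to 950 after siRNA-2, with no overlap between scrambled and siRNA libraries.

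Between the siRNAs, 9 members were higher with siRNA-2 and 5 lower, and 20 did not pass, against 15.7% higher and 16.8% lower among all genes. RAD54L differed most, by 0.39 (SE 0.06, 95% interval 0.27 to 0.51, edgeR adjusted p = 8.92e-06). XRCC3 followed with 0.31 (adjusted p = 1.78e-05), RAD51D with 0.29 (adjusted p = 0.000198) and CHEK1 with 0.28 (adjusted p = 4.28e-05). Smaller rises were those of EXO1 (0.22), RAD54B (0.21), RBBP8 (0.16), FANCI (0.14) and BRCA1 (0.14). Lower with siRNA-2 were ATM (-0.26, adjusted p = 0.00877), ATR (-0.24, adjusted p = 0.0048), NBN (-0.21, adjusted p = 0.00265), WRN (-0.16, adjusted p = 0.0203) and RAD50 (-0.09, adjusted p = 0.0498). ATM was no longer called without siRNA-1 replicate 2 (adjusted p = 0.0586), WRN lost its call in 5 of 22 alternatives (adjusted p up to 0.0899), and RAD50 in 17. By role, 4 of 8 recombinase paralogs and strand exchange genes were higher with siRNA-2, while 4 of 7 signalling genes were lower and 1 higher. The 8 core complex genes had log2 differences from -0.07 to 0.13, their 95% intervals all included 0, and none passed in edgeR or DESeq2, although FANCL passed without siRNA-1 replicate 2 (edgeR adjusted p = 0.00961). For FANCD2 the difference was -0.02 (95% interval -0.12 to 0.07).

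**Figure D4:**
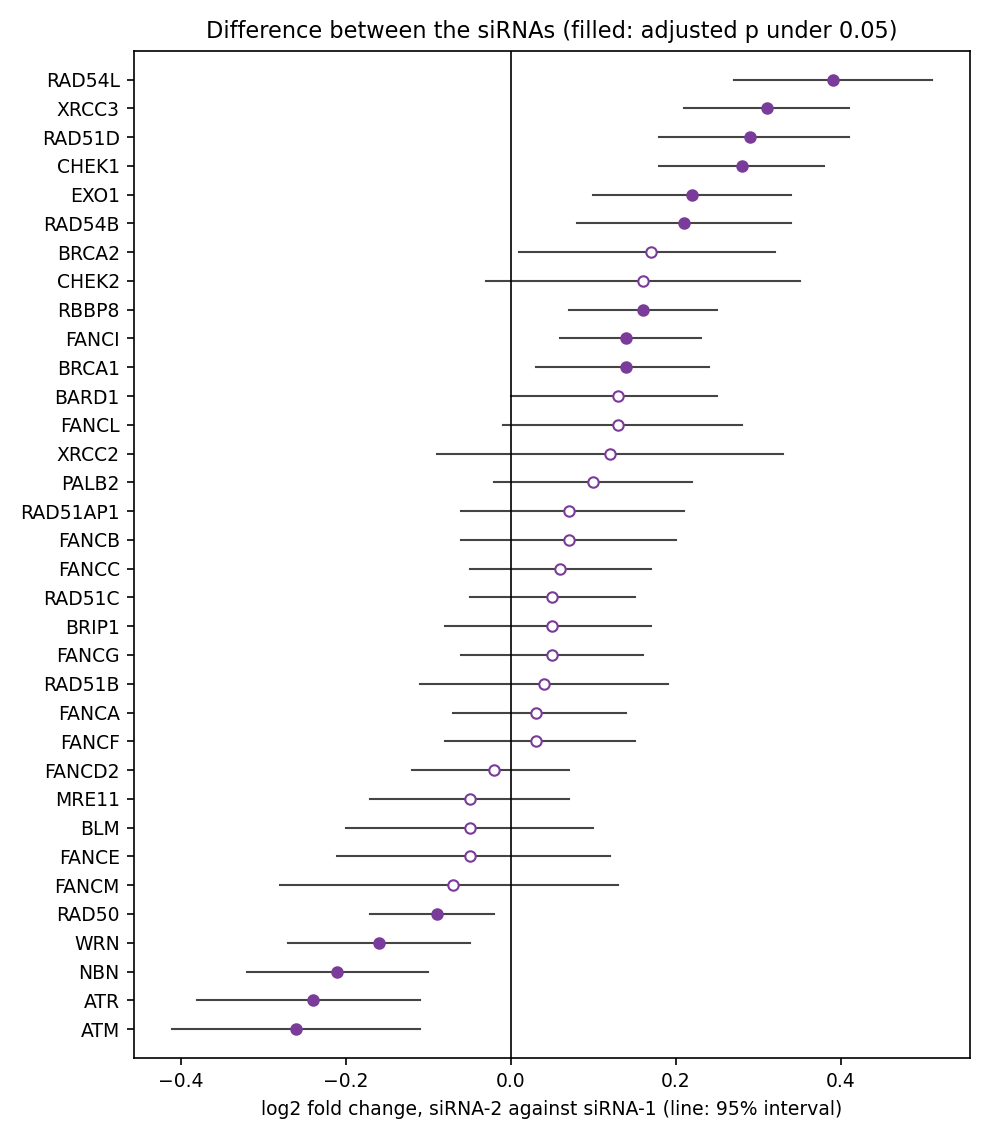
Log2 fold change of siRNA-2 against siRNA-1 (horizontal axis) for each of the 34 members, ordered by value, with 95% intervals as lines and filled dots for an adjusted p under 0.05. RAD54L is highest at 0.39 and ATM lowest at -0.26.

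Levels between genes were compared as CPM per kilobase of the principal transcript's exons (GENCODE 29) in the scrambled libraries. FANCI was highest at 20.7 ± 0.625 (SD, n = 4), followed by RBBP8 at 15.7 ± 0.764 and FANCG at 14.6 ± 0.641. FANCM at 1.06 ± 0.0323, BRCA2 at 1.15 ± 0.0477 and ATM at 1.27 ± 0.0959 were lowest. Along this order, the libraries of neighbouring genes overlapped in 23 of 33 steps and were apart in 10. RBBP8 and FANCG overlapped, as did the last 3. Because intronic reads count as well, these levels also hold what lies between exons. They may also hold reads of overlapping genes: POLG overlaps 2.4% of the FANCI span and holds 64.5% as many reads.

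The span of the members varied with their call. The 16 members lower with both siRNAs had a median span of 89.2 kb, the 4 higher with both 29.5 kb and the other 14 52.8 kb. Across the 34 members the Spearman correlation of span with log2 fold change was -0.28 for siRNA-1 and -0.47 for siRNA-2, and across 15011 protein-coding genes it was -0.20 and -0.19. The points share their libraries, genes are not independent replicates, and the part of span in the members' values was not tested.

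Other genes of these pathways were counted from a list of 50, of which 46 were tested. With siRNA-1 17 fell (37%) and 9 rose (19.6%), against 24.8% and 28.5% of all genes tested. With siRNA-2 16 fell (34.8%) and 14 rose (30.4%), against 26.1% and 29.9%. Among 9122 protein-coding genes within the members' range of level, siRNA-1 had 32.2% lower and 38.5% higher, and siRNA-2 had 35.2% and 37.2%. The median of the 46 was -0.03 with each siRNA. ATRIP, the partner of ATR, rose by 0.63 and 1.01 (SE 0.04 each), the opposite direction to ATR, with an interval that TREX1 overlaps with 178.0% as many reads. DNA2, a nuclease of long-range resection, fell by 0.60 and 0.82, HUS1, of the checkpoint clamp, whose interval PKD1L1 overlaps with 38.3% as many reads, by 0.30 and 0.61, and BABAM2, of the BRCA1-A complex, by 0.49 and 0.57. FAAP100, of the Fanconi core, rose by 0.66 and 0.38. H2AX, the histone marked at breaks, fell by 0.55 with siRNA-1 and had -0.03 with siRNA-2 (edgeR adjusted p = 0.582).

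End joining, the rival route that reseals ends without a template, also had more genes that fell than rose. Of 19, 11 fell (57.9%) and 2 rose (10.5%) with siRNA-1, against 24.8% and 28.5% of all genes tested. With siRNA-2, 12 fell (63.2%) and 3 rose (15.8%), against 26.1% and 29.9%. The medians were -0.16 and -0.17. XRCC6 and XRCC5, which form the Ku ring, fell by 0.20 and 0.22 with siRNA-1 and by 0.57 and 0.51 with siRNA-2. LIG4, the ligase, fell by 0.39 and 0.31, DCLRE1C, the Artemis nuclease, whose interval SUV39H2 overlaps with 95.5% as many reads, by 0.44 and 0.22, and XRCC4, whose interval TMEM167A overlaps with 532.0% as many reads, by 0.23 and 0.62. TP53BP1, which shields ends from resection, rose by 0.42 and 0.37, and TUBGCP4 overlaps it with 36.1% as many reads.

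Proliferation genes also fell more often than they rose. From the G1/S and DNA replication list of 27, 20 were lower and 2 higher with siRNA-1 (median -0.19), and 18 lower and 4 higher with siRNA-2 (median -0.16). Their summed level was 3900 to 4010 CPM in scrambled cells, 3230 to 3350 after siRNA-1 and 3280 to 3430 after siRNA-2. From the G2/M and mitosis list of 25, 21 were lower (84%) and 2 higher (8%) with siRNA-1 (median -0.36). With siRNA-2, 18 were lower (72%) and 3 higher (12%), with a median of -0.26. Their sum was 2990 to 3210, 2350 to 2500 and 2730 to 2990 CPM. Of the 25, 14 (56%) were higher with siRNA-2 than with siRNA-1, against 15.7% of all genes tested. The part of proliferation in the values of the recombination and Fanconi genes was not tested.

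**Figure D5:**
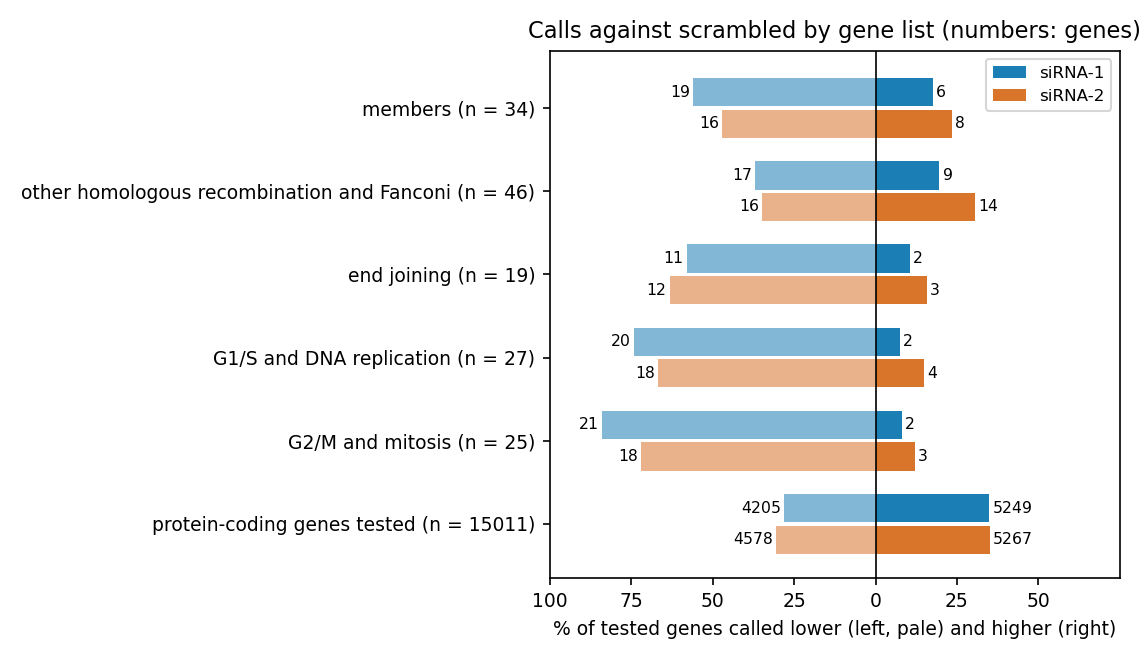
Share of tested genes called lower (left, pale) and higher (right) against scrambled with siRNA-1 (blue) and siRNA-2 (orange), with the number of genes at each bar. Of the members 55.9% and 47.1% are lower, between the protein-coding genes (28% and 30.5%) and the G2/M genes (84% and 72%).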

How the data were processed

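RNA of 12 A172 libraries was sequenced. The authors deposited 1 table of raw, unnormalized read counts for 49731 intervals of hg38. The submitters' processing notes name Salmon without a version or role. What counted the intervals is not stated in the labels. Intervals were left out as follows: 962 ultraconserved or random regions, 1949 extending more than 100 kb past their gene, 99 unmatched and longer than 1 Mb, 28 named by a number only, 1094 under outdated names, 31 of ribosomal RNA, 1196 with the same counts as an interval they overlap, and 26 second intervals of a name. This left 44346 intervals.

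Counts were fitted with edgeR 4.0.16 (R 4.3.3; TMM, filterByExpr with minimum count 10 and minimum total 15, robust quasi-likelihood, all 12 libraries, group as the only term), with two-sided tests adjusted by Benjamini-Hochberg over 24935 genes and a threshold of 0.05. SE is the absolute log2 fold change over the square root of F, and CPM uses TMM-scaled library sizes. The script was tested on simulated data. Alternatives included the size factors of DESeq2, DESeq2 1.42.0 itself, library totals alone, other filters, only the groups compared, protein-coding intervals only, nested reads subtracted, a replicate block and leaving out each library. One more, leaving out both libraries high in ribosomal RNA, was chosen after seeing the data. The members, lists and tests were chosen with earlier results of these data known. Of the lists, FAN1, TOP3A, RAD17, MDC1, PTPRC, AIF1 and MOG were not analysed here.

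Values in every library are given for members among the 8 highest or 8 lowest by the mean change of both siRNAs that pass with at least 1 siRNA, for those that pass in opposite directions, and for the 6 with the smallest p between the siRNAs. BRCA1 and FANCI were added by group mean. One result on an overlapping gene is not reported here. Of the 2 other repair lists, up to 6 genes each are named by smallest p. Replicates of a group differed by more than sampling noise. Python 3.11.15, with pandas 2.3.3, numpy 2.4.6 and matplotlib 3.10.9, made the tables and figures.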

Additional observations from a re-analysis of the deposited data

Results flagged for a closer look

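In 4 of 102 groups of 4 libraries, 1 library stood apart from the other 3 by a gap that chance gives in about 1 of 20 groups. BRCA2 was at 14.5 CPM in siRNA-1 replicate 2 and at 11.4 to 11.5 CPM in the others, and without that library BRCA2 fell by 0.29 with siRNA-1 (edgeR adjusted p = 0.00116). FANCD2 was at 55.4 CPM in scrambled replicate 4 and at 62.4 to 62.8 CPM in the others. RBBP8 was at 35.3 CPM in siRNA-1 replicate 2 and at 33.5 to 33.7 CPM in the others. CHEK2 was at 9.1 CPM in siRNA-2 replicate 1 and at 8.64 to 8.7 CPM in the others.

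RAD54L went in opposite directions with the siRNAs, and the difference of siRNA-2 from siRNA-1 was itself tested, at 0.39 on the log2 scale (edgeR adjusted p = 8.92e-06).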

How the results depend on the processing

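Leaving out each library in turn gave 5 to 7 members higher and 18 to 21 lower with siRNA-1 against scrambled, 7 to 9 higher and 14 to 17 lower with siRNA-2, 7 to 12 higher and 2 to 5 lower for siRNA-2 against siRNA-1, and 18 to 21 with the same direction in both (20 with all libraries). The count lower between the siRNAs was 2 without siRNA-1 replicate 2, and 3 without siRNA-2 replicate 1 or replicate 2. It was also 3 without both libraries highest in ribosomal RNA. Of 22 alternatives, all kept the calls of 22 of 25 members with siRNA-1, 19 of 24 with siRNA-2 and 9 of 14 between the siRNAs, and none turned the direction of a called member. Besides those given above, FANCG, FANCB and RAD51C with siRNA-2, RAD51AP1 with siRNA-1, and FANCI and BRCA1 between the siRNAs lost their calls in some. Calls were gained in some by EXO1, BRCA2, RAD51C and CHEK2 with siRNA-1, by EXO1, FANCE, RAD51AP1 and BLM with siRNA-2, and by FANCL, BARD1 and BRCA2 between the siRNAs. The replicate numbers did not pair the libraries: correlations of same-numbered libraries lay between -0.22 and 0.15. The replicate block gave 6 higher and 20 lower with siRNA-1, 8 and 16 with siRNA-2, and 9 and 4 between the siRNAs. Reads of partly overlapping genes could not be separated.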
